A study of Mus musculus with 6 samples.

Results

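Killer cell lectin-like receptors and natural killer (NK) cell genes were followed in splenic CD3+ T cell isolates of transplanted mice. The genes described are 7 of the 8468 in the deposited table, chosen by symbol. They are Klrc1, Klrd1, Klrk1, Klrg1, Klrb1b, Ncr1 and Tyrobp. Of these, 4 (Klrc1, Klrd1, Klrk1 and Klrg1) encode receptors that T cells share with NK cells, and 3 (Klrb1b, Ncr1 and Tyrobp) are genes known mainly from NK cells or myeloid cells. All 7 passed the filter on low values of at least 1 FPKM (fragments scaled to gene length and library size) in 3 or more libraries. Klrb1b passed it only through the allogeneic group.

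The hosts of both groups were Balb/c mice that had received a haematopoietic stem cell transplant (HSCT). Donors of the syn-HSCT group were Balb/c as well, and donors of the allo-HSCT group were C57BL/6, a strain that differs from the host in its transplantation antigens. Each group has 3 libraries, of 15642385 to 17524496 reads as recovered from the values. The labels give no age, dose of cells, conditioning or day of sampling, and whether libraries of a group stem from separate animals is not stated, so that p-values measure only how these samples spread, possibly for technical reasons. Donor strain and type of transplant coincide in all samples and cannot be told apart.

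Killer lectin receptors are type II membrane proteins with a C-type lectin-like domain, most of them encoded side by side in the NK gene complex. They come as inhibitory forms, which carry a tyrosine motif in the cytoplasmic tail, and activating forms, which lack it and signal through small adaptor proteins with their own tyrosine motifs. NK cells use the balance of both to sense class I molecules and stress-induced ligands, and CD8 T cells take up several of the same receptors after activation. Klrd1 encodes CD94, the common partner chain. Klrc1 encodes NKG2A, which pairs with CD94 into an inhibitory receptor for the class Ib molecule Qa-1. Klrk1 encodes NKG2D, an activating receptor for stress ligands, and Klrg1 encodes an inhibitory receptor for cadherins that marks terminal effector T cells and mature NK cells. Klrb1b encodes an inhibitory receptor of the NKR-P1 family. Ncr1 encodes NKp46, an activating receptor of NK cells and some innate lymphoid cells, and Tyrobp encodes DAP12, an adaptor of activating receptors in NK cells and of many receptors in myeloid cells.

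The promoter windows of 2 genes that rose, Klrc1 and Klrk1, and of 1 that fell, Ncr1, are shown to set the letters of genes that moved in opposite directions side by side. Each runs from 250 bases before to 50 bases after the RefSeq start site, 5′ to 3′ on the strand of the gene, in the C57BL/6J reference build GRCm38.p6. Capitals mark matches to the Runx core TGTGGT or, in Klrk1 after the start, to the AP-1 motif TGANTCA, each searched on both strands.
Klrc1 (chr6:129678924-129679223, minus strand): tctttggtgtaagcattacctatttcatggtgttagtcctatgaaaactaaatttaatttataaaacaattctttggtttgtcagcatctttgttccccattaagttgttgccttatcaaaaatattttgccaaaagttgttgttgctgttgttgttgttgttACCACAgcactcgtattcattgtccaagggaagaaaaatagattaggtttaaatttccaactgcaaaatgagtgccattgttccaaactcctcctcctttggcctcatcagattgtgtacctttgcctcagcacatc
Klrk1 (chr6:129623815-129624114, minus strand): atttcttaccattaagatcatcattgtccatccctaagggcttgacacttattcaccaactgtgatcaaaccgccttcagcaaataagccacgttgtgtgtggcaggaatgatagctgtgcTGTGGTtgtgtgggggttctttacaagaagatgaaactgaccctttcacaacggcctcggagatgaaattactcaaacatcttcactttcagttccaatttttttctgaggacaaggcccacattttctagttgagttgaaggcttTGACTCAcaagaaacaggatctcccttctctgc
Ncr1 (chr7:4337465-4337764, plus strand): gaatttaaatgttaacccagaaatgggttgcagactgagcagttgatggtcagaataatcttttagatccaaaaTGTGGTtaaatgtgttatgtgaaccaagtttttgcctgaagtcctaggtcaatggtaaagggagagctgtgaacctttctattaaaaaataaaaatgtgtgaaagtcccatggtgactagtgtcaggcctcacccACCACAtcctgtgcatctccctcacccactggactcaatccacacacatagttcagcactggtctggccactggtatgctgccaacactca
The Runx core stood once in the window of Klrc1, once in that of Klrk1 and 2 times in that of Ncr1, and it was not found in either RefSeq window of Klrb1b. Of 32851 RefSeq windows of this length, 16.8% held it. The AP-1 motif, present once in Klrk1, stood in 7.81% of them. A T-box motif (GGTGTGA, 3.98% of windows) and a STAT motif (TTCNNNGAA, 8.30%) had no match in the windows of these 4 genes. None of the motifs overlapped in the windows shown. The matches describe the letters only, and the Runx core was present in genes that rose and in a gene that fell.

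The isolates carried T cell transcripts along with those of other cells. List genes are called measured when the deposited table holds them. That table appears limited to genes that differed, so list genes that changed little may be missing from it. Of 20 genes of the T cell receptor and lineage list 17 were measured, and all 17 were higher in allo-HSCT. Their summed level was 1823 to 1952 FPKM in the syn-HSCT libraries and 3131 to 3185 in the allo-HSCT libraries. Of 15 macrophage and monocyte markers 12 were measured, and all 12 were lower. They summed to 1982 to 2570 FPKM in syn-HSCT and 510 to 631 FPKM in allo-HSCT, and none of the 12 was at 0 in a whole group. Within these sums, Lyz2 alone stood at 1341 to 1794 FPKM in syn-HSCT and at 188 to 269 FPKM in allo-HSCT. By limma at an adjusted p under 0.05, 47.9% of all tested genes were higher and 45.8% lower. The 6 measured B cell markers summed to 10.5 to 11.6 and 16.3 to 17.5 FPKM. In these bulk samples, fewer cells of a type and less RNA per cell cannot be told apart.

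Comparing allo-HSCT with syn-HSCT asks how lectin receptor and NK transcripts of splenic T cell isolates differ between recipients of foreign and of matched cells. Klrc1, Klrb1b, Klrk1 and Klrd1 were higher in allo-HSCT, and Tyrobp, Ncr1 and Klrg1 were lower. Klrc1 and Klrb1b were the genes with the large rises, 5.71-fold and 46.6-fold, while Klrk1 (1.49-fold) and Klrd1 (1.24-fold) rose little. Tyrobp, Ncr1 and Klrg1 fell by similar factors, to levels 3.44-fold, 3.58-fold and 2.79-fold lower. Thus 4 of the 7 were called higher and 3 lower by limma at a Benjamini-Hochberg adjusted p under 0.05, among them Klrb1b, which had to differ to be tested. Of all 5460 tested genes, 93.7% were called in either direction, 47.9% higher and 45.8% lower, in a table from which genes with small differences are largely missing. A call as such is therefore no result about these 7 genes. The table appears limited to genes that differed, so the p-values printed for all 7 may be small for that reason as well. With a log2 fold change of at least 1 as well, 2 were higher and 3 lower, where 3.74% and 7.91% of the tested genes were. The groups did not overlap in any of the 7, as in 91% of the tested genes.

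**Figure D1:**
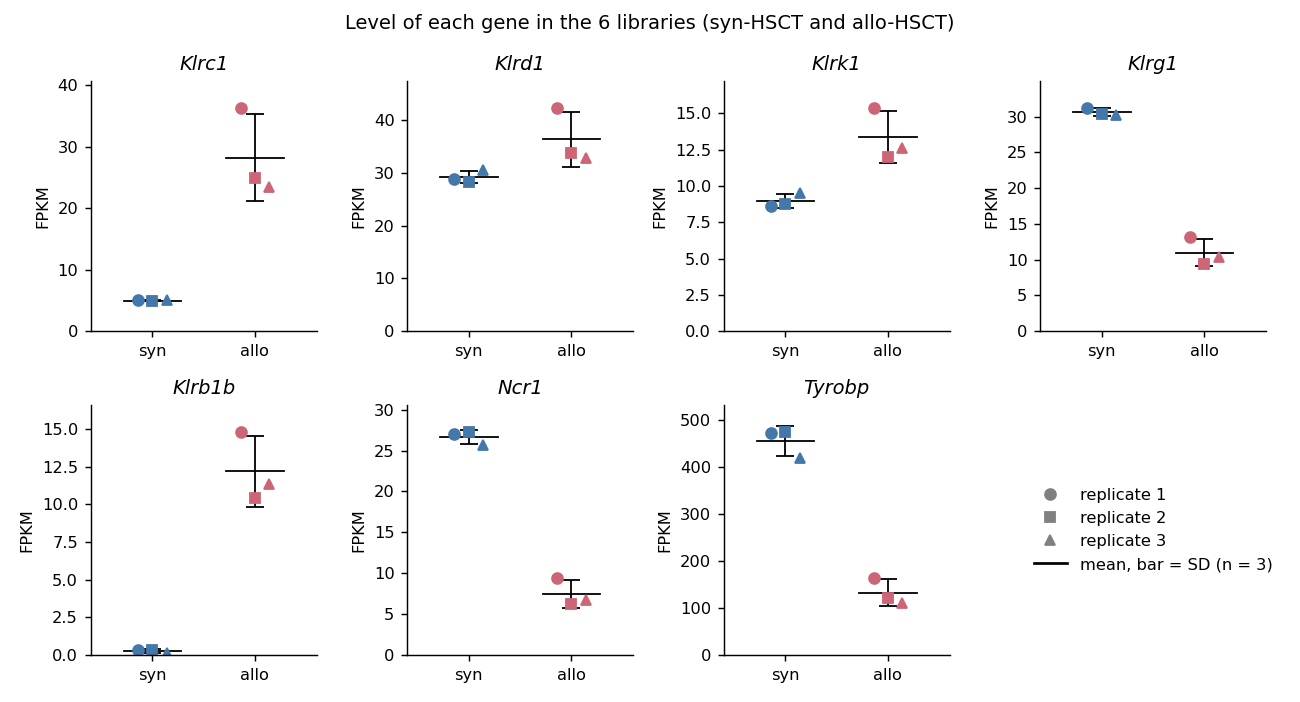
FPKM (vertical axis, from 0) of the 7 genes in the 3 syn-HSCT and 3 allo-HSCT libraries, with each library as a point and the group mean and SD (n = 3) as line and bar. Klrc1 and Klrb1b stood at 4.83 to 5.002 and 0.145 to 0.336 FPKM in syn-HSCT and at 23.5 to 36.3 and 10.4 to 14.8 in allo-HSCT, and allo-HSCT replicate 1 was the highest allo-HSCT library for all 7 genes.

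Among receptors shared with T cells, the partner chains Klrc1 and Klrd1 were read first. Klrc1 stood at 4.99, 4.83 and 5.002 FPKM in syn-HSCT replicates 1 to 3 and at 36.3, 24.9 and 23.5 FPKM in allo-HSCT replicates 1 to 3. Every allo-HSCT library lay far above every syn-HSCT library, and the syn-HSCT libraries were close together. The means were 4.94 ± 0.0966 and 28.2 ± 7.03 FPKM (SD, n = 3 each), with a log2 fold change of 2.27 on the log2(FPKM + 1) scale (SE 0.1402, limma adjusted p = 5.81e-07). Behind these values were 498 reads in syn-HSCT and 2893 in allo-HSCT, summed over libraries. Klrc1 has close paralogs in Klrc2 and Klrc3 among which the authors' counting could split reads. Klrc2, which encodes the activating receptor chain NKG2C, was 4.41-fold higher as well (log2 fold change 1.46, limma adjusted p = 4.67e-07), with means of 1.05 ± 0.150 and 4.65 ± 0.346 FPKM. It was not highest in allo-HSCT replicate 1 but in replicate 2, at 4.26, 4.91 and 4.78 FPKM in replicates 1 to 3. Klrc3 was not analysed here.

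Klrd1 was already well expressed in syn-HSCT, at 28.8, 28.3 and 30.5 FPKM, and stood at 42.3, 33.8 and 32.8 FPKM in allo-HSCT. The lowest allo-HSCT library was above the highest syn-HSCT library by a narrow margin. The means were 29.2 ± 1.14 and 36.3 ± 5.20 FPKM (n = 3 each), a log2 fold change of 0.30 (SE 0.0996, limma adjusted p = 0.0166). This is the least secure of the 7 calls: without syn-HSCT replicate 2 the limma adjusted p was 0.0580, and without allo-HSCT replicate 1 the log2 fold change was 0.19 (limma adjusted p = 0.00921). The ratio of Klrc1 to Klrd1 FPKM was 0.173, 0.171 and 0.164 in the syn-HSCT libraries and 0.858, 0.736 and 0.715 in the allo-HSCT libraries. NKG2A transcripts therefore came from well under the level of the partner chain to near it in each allo-HSCT library. Taken relative to Klrd1 in the fit over all genes, Klrc1 was higher by 1.97 on the log2 scale (95% interval 1.67 to 2.28, limma adjusted p = 1.46e-11). Of all genes fitted in this way, 10.1% were called higher and 46.3% lower. Subtracting a reference gives every gene the error of that reference, so p-values of relative fits may be too small and their intervals too narrow.

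**Figure D2:**
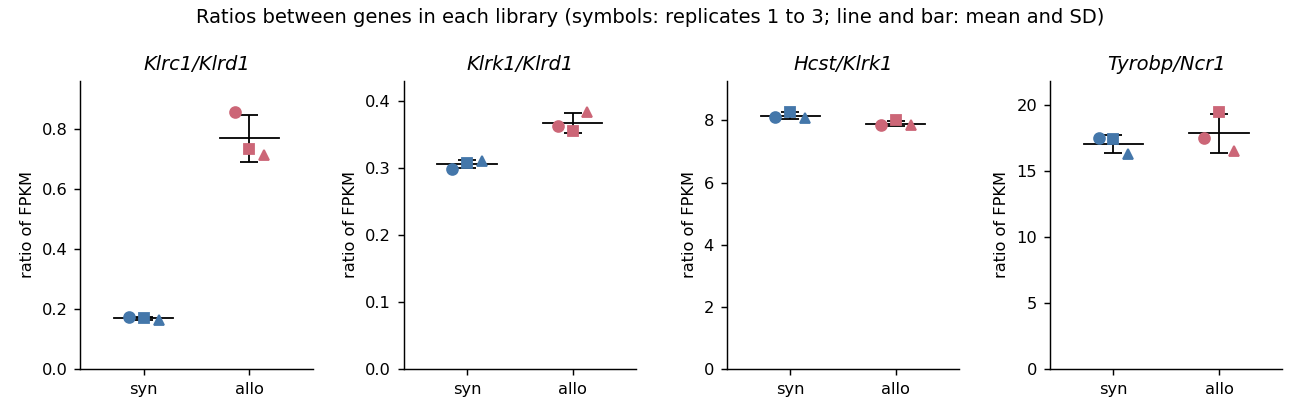
Ratio of FPKM between pairs of genes (vertical axis, from 0) in each of the 6 libraries, with mean and SD as line and bar. Klrc1/Klrd1 went from 0.164 to 0.173 in syn-HSCT to 0.715 to 0.858 in allo-HSCT, while Hcst/Klrk1 stayed between 7.84 and 8.28 in all libraries and Tyrobp/Ncr1 overlapped between the groups.

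Klrk1 stood at 8.61, 8.72 and 9.49 FPKM in syn-HSCT and at 15.4, 12.0 and 12.6 FPKM in allo-HSCT. Each allo-HSCT library was above each syn-HSCT library. The means of 8.94 ± 0.479 and 13.3 ± 1.79 FPKM (n = 3 each) gave a log2 fold change of 0.52 (SE 0.0976, limma adjusted p = 7.74e-04). The ratio of Klrk1 to Klrd1 was 0.299, 0.308 and 0.311 in syn-HSCT and 0.363, 0.355 and 0.384 in allo-HSCT, so it did not overlap between the groups either. Relative to Klrd1, the log2 difference of 0.22 (95% interval -0.07 to 0.52, limma adjusted p = 0.216) did not pass the threshold over all libraries, and it did without allo-HSCT replicate 1 (0.24, limma adjusted p = 0.0148). NKG2D signals through DAP10, the adaptor encoded by Hcst. Hcst rose by about as much, with a log2 fold change of 0.52 (SE 0.0969, limma adjusted p = 7.83e-04) between means of 72.9 ± 3.55 and 105 ± 13.4 FPKM. Hcst was at 8.11, 8.28 and 8.09 times the Klrk1 level in the syn-HSCT libraries and at 7.852, 8.004 and 7.840 times in the allo-HSCT libraries. These ranges lay close together but did not overlap.

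Klrg1 went the other way from the other receptors shared with T cells. It stood at 31.2, 30.4 and 30.3 FPKM in syn-HSCT and at 13.2, 9.44 and 10.4 FPKM in allo-HSCT. All allo-HSCT libraries were below all syn-HSCT libraries. The means were 30.7 ± 0.508 and 10.99 ± 1.94 FPKM (n = 3 each), a log2 fold change of -1.41 (SE 0.108, limma adjusted p = 2.25e-06). Klrg1 and Klrd1 were at a like level in syn-HSCT, with ratios of Klrg1 to Klrd1 of 1.08, 1.08 and 0.995, and Klrg1 was at 0.311, 0.279 and 0.316 of Klrd1 in allo-HSCT. Relative to Klrd1 its log2 change was -1.71 (95% interval -2.00 to -1.42, limma adjusted p = 1.31e-10). Other genes of terminal effector T cells and mature NK cells went both ways. Of the transcription factor genes Tbx21, Prdm1 and Id2, all were higher, 2.25-fold, 1.94-fold and 1.43-fold, while Zeb2 and S1pr5, a receptor gene for cell egress, were lower. Zeb2, a transcription factor gene that monocytes and dendritic cells express too, went from 17.8 ± 1.70 to 4.20 ± 0.179 FPKM (log2 fold change -1.85, limma adjusted p = 1.07e-07). S1pr5 went from 1.55 ± 0.141 to 0.888 ± 0.278 FPKM (log2 fold change -0.44, limma adjusted p = 0.00332).

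Of the genes known mainly from NK and myeloid cells, Klrb1b was nearly silent in syn-HSCT, at 0.303, 0.336 and 0.145 FPKM from 11, 13 and 5 reads. In allo-HSCT it stood at 14.8, 10.4 and 11.3 FPKM, from 553, 393 and 408 reads. The groups were further apart than for any other of the 7 genes. Because Klrb1b passed the filter only through allo-HSCT, it had to differ, and its call and p-value support nothing. As a description, its log2 fold change was 3.37 on the log2(FPKM + 1) scale (SE 0.124), and 5.11 with a pseudocount of 0.1. How reads of the Balb/c and C57BL/6 alleles matched the authors' reference was not tested. Its tested relatives went both ways. Klrb1c, which encodes the activating receptor that carries the NK1.1 antigen in C57BL/6 mice, rose 1.91-fold from 2.74 ± 0.189 to 5.23 ± 0.858 FPKM. Klrb1f, encoding a further NKR-P1 receptor, was 2.93-fold lower, at 10.6 ± 0.576 and 3.61 ± 0.329 FPKM. Klrb1a, encoding an activating form, was 2.87-fold lower, at 3.90 ± 0.537 and 1.36 ± 0.409 FPKM. Limma adjusted p-values were 1.50e-04, 6.71e-07 and 4.85e-05 for these 3 relatives.

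Ncr1 stood at 27.0, 27.3 and 25.7 FPKM in syn-HSCT and at 9.40, 6.22 and 6.74 FPKM in allo-HSCT. No allo-HSCT library reached the syn-HSCT range. The means were 26.7 ± 0.861 and 7.45 ± 1.71 FPKM (n = 3 each), a log2 fold change of -1.73 (SE 0.125, limma adjusted p = 1.53e-06). Set against the T cell gene Cd3e, Ncr1 was at a ratio of 0.277, 0.276 and 0.260 in syn-HSCT and 0.0595, 0.0321 and 0.0348 in allo-HSCT. NK transcripts were thus measurable in every library of these CD3+ isolates.

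Tyrobp was the most abundant of the 7 transcripts in both groups. It stood at 473, 476 and 418 FPKM in syn-HSCT and at 165, 121 and 111 FPKM in allo-HSCT, with no overlap. The means of 456 ± 32.5 and 132 ± 28.4 FPKM (n = 3 each) gave a log2 fold change of -1.79 (SE 0.136, limma adjusted p = 2.12e-06). Relative to the 12 macrophage and monocyte markers, Tyrobp was lower by a further -0.43 on the log2 scale (95% interval -0.69 to -0.18, limma adjusted p = 0.00175), in a fit where 93.2% of genes were called higher and 2.55% lower. Within that marker list the size of the fall varied widely, with Lyz2 7.51-fold lower and Csf1r, the receptor for macrophage growth factor, 1.31-fold lower. The ratio of Tyrobp to Ncr1 was 17.5, 17.4 and 16.3 in syn-HSCT and 17.5, 19.5 and 16.5 in allo-HSCT. Relative to Ncr1, Tyrobp differed by -0.06 (95% interval -0.30 to 0.17, limma adjusted p = 0.576) and Klrg1 by 0.32 (95% interval -0.01 to 0.65, limma adjusted p = 0.0599). Neither passed the threshold over all libraries. For Klrg1 the same difference did pass without allo-HSCT replicate 1 (0.35, limma adjusted p = 3.85e-04). The reference Ncr1 was chosen after the values were seen, and 95.7% of genes were called higher relative to it and 0.714% lower.

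Hcst lies next to Tyrobp in the RefSeq gene order, and these neighbouring adaptor genes went in opposite directions. Tyrobp was at 6.78, 6.59 and 5.45 times the level of Hcst in syn-HSCT and at 1.36, 1.26 and 1.13 times in allo-HSCT. Fcer1g, the adaptor gamma chain used by NKp46 and by Fc receptors, was 1.96-fold lower (log2 fold change -0.98, SE 0.129, limma adjusted p = 9.01e-05), at 150 ± 8.19 and 76.4 ± 16.0 FPKM. Over the adaptor and signalling list, 14 of 18 genes were measured, and 9 of these rose and 4 fell. Among all tested genes, 47.9% were called higher and 45.8% lower. The 4 that fell were Tyrobp, Fcer1g, Plcg2 and Syk. Syk, the kinase recruited by these adaptors in NK, B and myeloid cells, was at 12.7 ± 1.05 and 5.22 ± 0.261 FPKM, 2.43-fold lower. Plcg2, a phospholipase of B, NK and myeloid cells, was 3.02-fold lower. Zap70, the related kinase of T and NK cells, rose 1.83-fold from 52.7 ± 2.70 to 96.2 ± 9.34 FPKM. The median log2 fold change of the list was 0.46, beside 0.20 over all tested genes.

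DAP12 also serves receptors of monocytes, granulocytes and dendritic cells, and these transcripts were low in allo-HSCT. Of 14 such receptors 11 were measured and 10 tested, and all 10 fell, with a median log2 fold change of -1.20. Among all tested genes, 45.8% were called lower and the median was 0.20. Of the 10, Siglech, Trem2, Cd300lb and Cd300ld passed the filter only through the syn-HSCT group, so that these 4 had to differ. The count was 6 without any single syn-HSCT library, since the filter then drops such genes, and 4 among genes averaging 5 FPKM or more. Siglech, a receptor of plasmacytoid dendritic cells, was at 7.99 ± 0.320 and 0.349 ± 0.118 FPKM. Trem2, a lipid receptor of macrophages, was at 5.31 ± 0.407 and 0.779 ± 0.175 FPKM, and Clec5a, a lectin of monocytes and neutrophils, at 7.83 ± 0.288 and 1.98 ± 0.269 FPKM. The summed level of the 11 was 85.5 to 95.6 FPKM in syn-HSCT and 30.9 to 41.8 in allo-HSCT. The part of myeloid transcripts in the fall of Tyrobp was not tested.

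**Figure D3:**
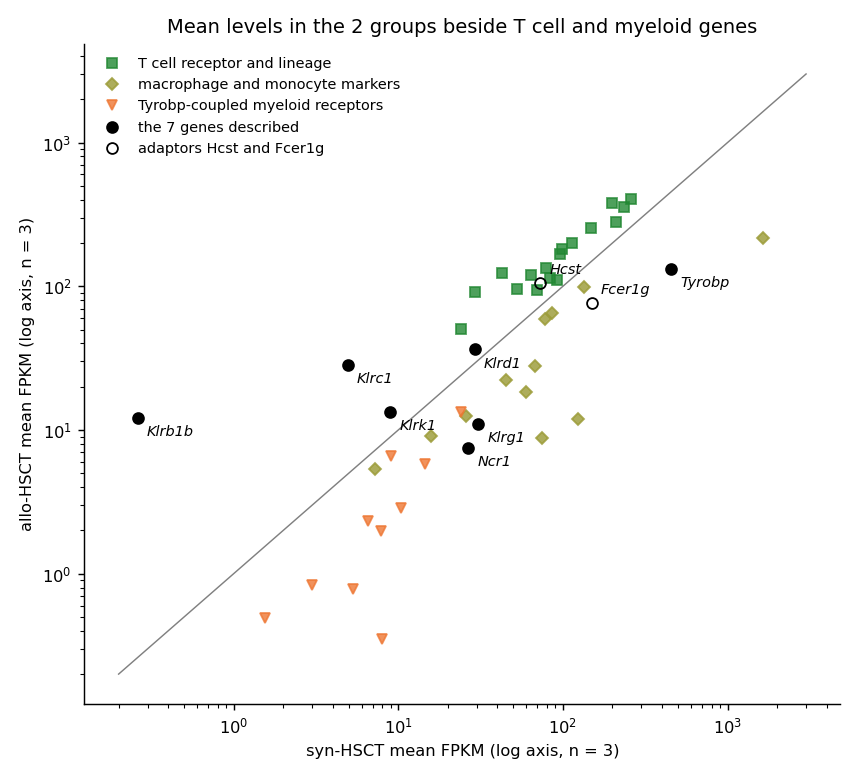
Mean FPKM (n = 3) in allo-HSCT (vertical log axis) against syn-HSCT (horizontal log axis) for the 7 genes, the adaptors Hcst and Fcer1g, and the tested genes of 3 lists, with the line of equal levels. The 17 T cell genes lie above the line, the 12 macrophage and monocyte markers and 10 Tyrobp-coupled receptors below it, with Tyrobp, Ncr1 and Klrg1 on the lower side and Klrc1 and Klrb1b farthest above.

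T cell genes themselves rose, so each of the 7 genes was also read against them. Subtracting the mean log2 level of the 17 T cell genes in each library left Klrc1 higher in allo-HSCT by 1.47 (95% interval 1.17 to 1.78, limma adjusted p = 5.97e-07). Klrb1b, tested only because it is high in allo-HSCT, had a difference of 2.57, given as a description. On this scale Klrd1 was lower by -0.50 (95% interval -0.73 to -0.28, limma adjusted p = 5.87e-04). Klrk1 was lower by -0.28 (95% interval -0.50 to -0.06, limma adjusted p = 0.0195), a call that ended with a pseudocount of 0.1 (limma adjusted p = 0.0511) and without any of syn-HSCT replicates 1 and 3 and allo-HSCT replicates 2 and 3 (limma adjusted p = 0.0503 to 0.0790). Klrg1, Ncr1 and Tyrobp were lower by -2.21, -2.53 and -2.59. Of all tested genes, 3.37% were called higher relative to the T cell genes and 86.7% lower. Because a subtracted reference gives every gene a shared error, the p-values of such relative fits may be too small.

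Against the CD8 coreceptor gene Cd8a, which rose 3.15-fold, Klrc1 was higher by 0.65 (95% interval 0.38 to 0.93, limma adjusted p = 1.81e-04), and the difference for Klrb1b was 1.75, again as a description. In this fit 0.623% of genes were called higher and 98.5% lower. The ratio of Klrc1 to Cd8a was 0.178, 0.164 and 0.166 in syn-HSCT and 0.384, 0.274 and 0.261 in allo-HSCT, without overlap. Klrk1 fell against Cd8a, from ratios of 0.307, 0.297 and 0.315 to ratios of 0.162, 0.132 and 0.1403.

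**Figure D4:**
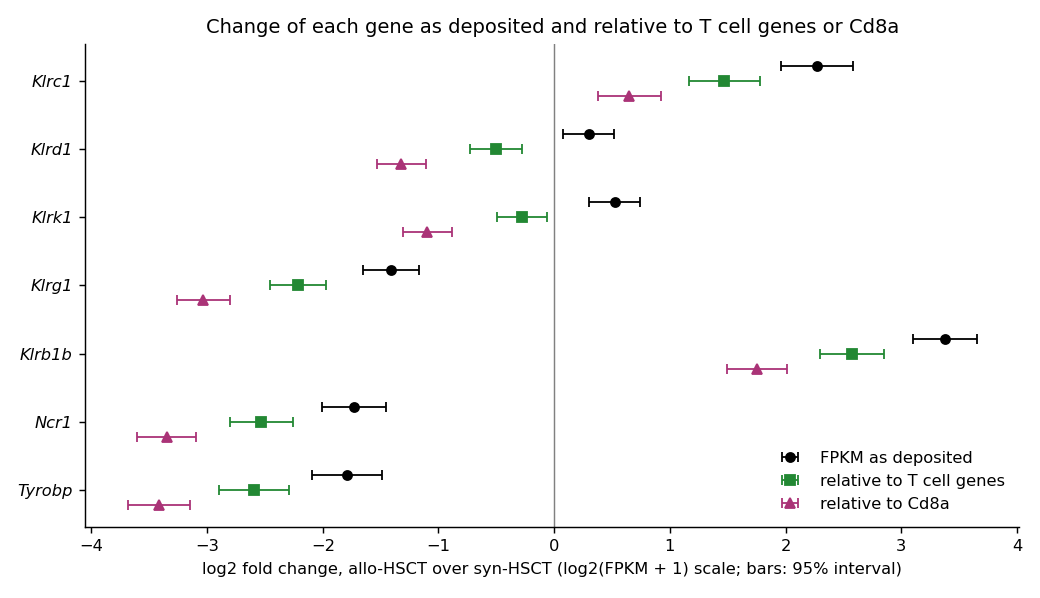
Log2 fold change of allo-HSCT over syn-HSCT with its 95% interval (horizontal axis) for the 7 genes, as deposited, relative to 17 T cell genes and relative to Cd8a. Klrc1 and Klrb1b stay above 0 on each scale, Klrd1 and Klrk1 change side once T cell genes are subtracted, and Klrg1, Ncr1 and Tyrobp lie below 0 on each.

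The order of levels among the 7 genes changed between the groups, read as FPKM per gene length. In syn-HSCT it was Tyrobp, Klrg1, Klrd1, Ncr1, Klrk1, Klrc1 and Klrb1b, and the ranges of the 3 libraries overlapped only between the neighbours Klrg1 and Klrd1. In allo-HSCT it was Tyrobp, Klrd1, Klrc1, Klrk1, Klrb1b, Klrg1 and Ncr1, and the neighbours Klrd1 and Klrc1, Klrk1 and Klrb1b, and Klrb1b and Klrg1 overlapped.

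Allo-HSCT replicate 1 gave the highest allo-HSCT value for all 7 genes, those that rose and those that fell, which was so in 39.7% of the tested genes. It lay above the mean of allo-HSCT replicates 2 and 3 by between 1.25-fold for Klrk1 and 1.501-fold for Klrc1. In the same library 9 of the 12 macrophage and monocyte markers, 8 of the 17 T cell genes and 8 of the 12 tested NK cell markers were also highest of the 3. Without it, Klrc1 was 4.89-fold and Klrk1 1.38-fold higher, and Ncr1, Tyrobp and Klrg1 were 4.12-fold, 3.92-fold and 3.10-fold lower. With the 5460 tested genes kept in the fit, all 7 calls held without that library, where 2695 of all tested genes were called higher and 2495 lower. Among the 7, Klrb1b had to differ, and it was not tested when the filter was redone without that library. In that fit Klrd1 had a log2 fold change of 0.19, against 0.30 with all libraries.

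Across the killer lectin receptor family, 21 of 27 listed genes were measured and 15 tested. Of these, 6 rose and 9 fell, where 47.9% and 45.8% of all tested genes did. The median log2 fold change was -0.34 beside 0.20 over all tested genes. Of the 15, 3 passed the filter through 1 group only, and 3 rather than 9 were lower among genes averaging 5 FPKM or more. The risers were Klrb1b, Klrc1, Klrc2, Klrb1c, Klrk1 and Klrd1. The 4 tested Ly49 receptor genes, which encode receptors for classical class I molecules, all fell, among them Klra3 (2.24-fold lower, 7.73 ± 0.719 and 3.46 ± 0.596 FPKM). Of the 4, Klra17 passed the filter only through syn-HSCT and had to differ. Klre1, which encodes an NK receptor chain that pairs with Klri chains, fell 2.83-fold from 4.02 ± 0.217 to 1.42 ± 0.311 FPKM. Ly49 genes are near-identical in stretches and differ in number between mouse strains, so the values of single Ly49 genes are uncertain. Below the filter, Klrh1 stood at 0, 2 and 2 reads in syn-HSCT and at 20, 21 and 15 reads in allo-HSCT.

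Placed in RefSeq order along the NK gene complex of C57BL/6J, the directions of neighbouring genes were read as a description, with no test. Klrd1, Klrk1, Klrc2 and Klrc1, which stand in a row apart from Klrc3, all rose. Klre1 on one side of them fell. On the other side the 5 tested genes from Klri2 to Klra2 were lower, of which Klri2 and Klra17 passed the filter only through syn-HSCT and had to differ. Klrh1 lies between those 2 and, under the filter, had more reads in each allo-HSCT library than in any syn-HSCT library. In the block of NKR-P1 and Clec2 genes, Klrb1c, Klrb1b and Clec2i rose between Klrb1a and Klrb1f, which fell. Between the blocks lie lectin genes of myeloid cells, such as Clec7a, the beta-glucan receptor dectin-1, with means of 32.7 ± 4.01 FPKM (syn-HSCT) and 6.29 ± 1.32 FPKM (allo-HSCT). The order in Balb/c was not used here.

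**Figure D5:**
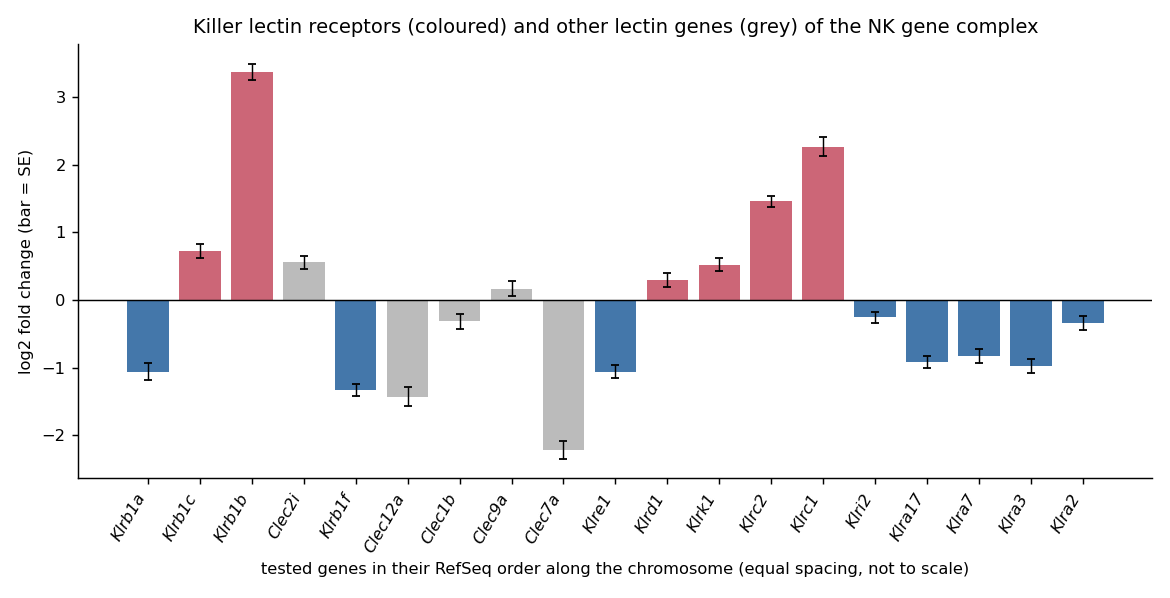
Log2 fold change of allo-HSCT over syn-HSCT with its SE (vertical axis) for the 19 tested lectin genes of the NK gene complex, in RefSeq order with equal spacing. The adjoining bars of Klrd1, Klrk1, Klrc2 and Klrc1 point up, those of Klre1 and of Klri2 to Klra2 point down, and grey bars are lectin genes outside the killer lectin receptor family.

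Of 21 listed NK cell markers 16 were measured and 12 tested, with 5 higher, 6 lower and Sh2d1b1 not past the threshold, at a median log2 fold change of -0.04. These shares are close to the 47.9% higher and 45.8% lower among all tested genes. At a mean of at least 5 FPKM 3 were lower. The 6 lower were Ncr1, Klre1, Klri2, Klra7, Eomes and Xcl1, of which Klri2 passed the filter only through syn-HSCT and had to differ. Eomes, a transcription factor gene of NK and memory CD8 T cells, was at 12.8 ± 0.563 and 7.34 ± 0.787 FPKM. The 5 that rose were Klrb1c, Adamts14, Gzma, Nkg7 and Il2rb, of which Gzma, Nkg7 and Il2rb are also expressed by activated CD8 T cells. Nkg7, a cytotoxic granule protein gene, was 1.93-fold higher, at 175 ± 3.82 and 338 ± 24.2 FPKM.

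Of 14 listed other NK cell receptors, 10 were measured and tested, and 7 rose and 3 fell, where 47.9% and 45.8% of all tested genes did. The median log2 fold change was 1.06 beside 0.20 over all tested genes and 0.79 over the T cell receptor and lineage list. The 7 that rose were Cd226, Crtam, Cd96, Tigit, Slamf6, Slamf7 and Cd160. Which cells of the isolates carried these transcripts was not tested. Cd160, a receptor for the TNF family receptor HVEM, rose 3.46-fold from 4.99 ± 0.636 to 17.3 ± 3.34 FPKM. Slamf7, a self-binding receptor of cytotoxic lymphocytes, was 3.42-fold higher, at 2.60 ± 0.459 and 8.89 ± 1.66 FPKM. The 3 that fell were Ncr1 and the genes Lilrb4a and Fcgr3, which myeloid cells also express. Fcgr3, an Fc receptor, was at 20.7 ± 2.22 and 15.0 ± 4.02 FPKM, with overlapping groups.

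Ligand genes were measured in the same isolates. Of 21 listed, 11 were measured and 7 tested, with 6 higher and Cdh1, a cadherin ligand of KLRG1, not past the threshold (2.06 ± 0.431 and 1.58 ± 0.232 FPKM). Among all tested genes, 47.9% were called higher. H2-T23, which encodes the NKG2A ligand Qa-1, was 1.38-fold higher (log2 fold change 0.46, limma adjusted p = 9.00e-04), at 194 ± 11.02 and 268 ± 21.9 FPKM. H2-K1 and H2-D1, classical class I genes, rose 1.90-fold and 1.51-fold, and the donor strains carry different haplotypes of these genes. Clec2i, a ligand of an NKR-P1 receptor, rose 1.51-fold from 12.7 ± 0.522 to 19.2 ± 2.28 FPKM. The NKG2D ligand gene Ulbp1 rose 1.37-fold with overlapping groups, and Raet1d and Raet1e stayed below the filter in both groups.

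Of 19 tested cytotoxic effector genes, 14 rose and 5 fell, with a median log2 fold change of 0.76 beside 0.20 over all tested genes, of which 47.9% were called higher and 45.8% lower. Gzmb, granzyme B, and Prf1, perforin, rose 7.77-fold and 4.52-fold. The 5 that fell were Ccl3, Ccl4, Eomes, Zeb2 and S1pr5. Of innate-like T cell markers, all 5 tested were lower, where 45.8% of all tested genes were, with a median log2 fold change of -0.31. Il17a, at 4.09 ± 0.258 and 0.576 ± 0.114 FPKM, passed the filter only through syn-HSCT and so had to differ. The count of 5 was 0 at a mean of at least 5 FPKM, 2 with quantile normalization or without syn-HSCT replicate 3, and 3 without syn-HSCT replicate 1 or 2. Of 7 granulocyte markers, 3 were higher and 4 lower, shares close to those of all tested genes. The largest differences were those of the precursor genes Prtn3 and Mpo, 6.54-fold and 5.82-fold lower. The 3 that rose were Lcn2, Ngp and Ltf, 2.35-fold, 1.65-fold and 1.39-fold higher.

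The genes whose pattern was most like each of the 7 were found by the root mean square difference of centred log2(FPKM + 1) values over the 6 libraries, among 5294 named genes. For Klrk1 the nearest was Hcst at 0.0121, followed by Hba-a1 (0.0269) and Atg4a (0.0316). For Klrd1 they were Taf1b (0.0439), Carnmt1 (0.0462) and Ly9 (0.0466), and for Klrc1 Apobec2 (0.0890), Rpl29 (0.105) and Gldc (0.122). Klrg1 was nearest to Ifitm3 (0.0573), Tubb6 (0.0581) and Pak1 (0.0623). Klrb1b was nearest to Ly6a (0.0660), Trim12a (0.0678) and Chil3 (0.0882). Ncr1 was nearest to Ms4a6d (0.0603), Ccrl2 (0.0630) and Tceal8 (0.0650), and Tyrobp to Ifi202b (0.0653), Ms4a6d (0.0710) and Ctsg (0.0714). Among the 7 themselves, the closest pair was Ncr1 and Tyrobp at 0.0795, then Klrd1 and Klrk1 at 0.118 and Klrg1 and Ncr1 at 0.164. With 6 libraries in 2 groups, this measure mainly ranks genes by the size of their group difference. Apobec2, Gldc and Trim12a averaged only 0.0312, 0.0954 and 0.00766 FPKM in syn-HSCT. Like Klrb1b, they passed the filter only through allo-HSCT and had to differ.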

How the data were processed

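RNA of splenic CD3+ T cell isolates was sequenced after depletion of ribosomal RNA, per the labels' protocols. The deposited table gives 1 value per gene and library without a named unit. Multiplied by gene length and library total, the values gave whole reads (within 1e-04) for each of the 8468 genes, so the authors' values are treated as FPKM. For the aligner, counter, build and strand use, the entry is "not given in the sources used here". Limma is named, without a role, in the submitters' processing notes.

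The table holds genes with 42.2% to 45.5% of each library's reads. Among 4825 genes averaging over 100 reads, none had a log2 ratio between -0.37 and 0.21, so it appears limited to genes that differed, and calls describe this table. The 5460 genes reaching 1 FPKM in at least 3 libraries entered limma (version 3.58.1 under R 4.3.3) as log2(FPKM + 1), using a mean-variance trend, without covariates, and Benjamini-Hochberg adjustment over all of them (threshold 0.05). Folds are ratios of mean FPKM, and the log2 scale understates changes of low genes. For relative changes, the reference was subtracted per library before the fit. The fit was run on simulated data in which few genes were changed. That setting is unlike this table, so the run says nothing about error rates here. Samples were grouped by the transplant label. Named genes are the 7, up to 3 list genes with the largest change, members against the direction of most of their list, and the 3 most alike genes, and some further list genes were named after their values were seen. The 7 genes and all lists were chosen with earlier results of these data known. Alternatives were pseudocount, filter, scaling, weights, variance trend, replicate block and libraries left out.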

Additional observations from a re-analysis of the deposited data

How the results depend on the processing

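Of the 7 genes, 3 were called lower under every alternative run, and 4 were called higher except where Klrd1 or Klrb1b was lost. Klrd1 was not called without syn-HSCT replicate 2 (log2 fold change 0.28, limma adjusted p = 0.0580, or 0.0579 with the genes of the full filter), and over the libraries left out it ranged from 0.19 to 0.36. Klrb1b could not be tested under the filter without an allo-HSCT library, because only 2 libraries then reach 1 FPKM; with the genes of the 6-library filter kept, an alternative chosen after seeing the data, it was called higher, as the filter requires it to differ. Relative to T cell genes, Klrk1 was not called with a pseudocount of 0.1 (-0.24) and ranged from -0.38 to -0.21 with a library left out. Relative to Klrd1 it ranged from 0.19 to 0.24 and was called without allo-HSCT replicate 1. Relative to Ncr1, Klrg1 ranged from 0.30 to 0.35, and Tyrobp was -0.06 in the main setting and 0.048 with a pseudocount of 0.1, neither called.

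At a mean of at least 5 FPKM, fewer genes are tested. The lower calls were then 3 NK cell markers, 3 killer lectin receptors, 4 Tyrobp-coupled receptors, 0 innate-like T cell markers, 0 B cell markers and 1604 of all genes, and 1 B cell marker was higher. Without a filter 3 ligand genes were lower and 5 B cell markers higher. With sample quality weights 1 ligand gene was lower, and with a library left out 0 to 1. Quantile normalization left 2 innate-like T cell markers lower. With a library left out, Tyrobp-coupled receptors called lower ranged from 6 to 10 and innate-like T cell markers from 2 to 5. The sample weights did not fully converge. Apart from these, 538 of the counts and 135 of the log2 fold changes kept their side.

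Same-numbered libraries of the 2 groups did not deviate together (correlations of -0.02, -0.20 and 0.08 across genes), so the numbers were not taken as pairs. With the replicate block 4 of the 7 genes were higher and 3 lower, and 2582 of all tested genes were higher and 2523 lower. At the least depth, Klrb1b in syn-HSCT rests on 5 to 13 reads per library.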
